A study of Mus musculus with 48 samples.

Results

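The mitochondrial respiratory chain genes were described in cortex and striatum of a mouse model of Huntington's disease. Members were taken by name alone: every probe whose platform symbol begins with Nduf followed by a, b, c, s or v, with Uqcr, with Cox followed by a digit between 4 and 8, or with Atp5, or equals Sdha, Sdhb, Sdhc or Sdhd. The rule found 107 of the 25697 probes on the array, which stand for 85 genes of 16593 named genes. Complex I had 40 of these genes, complex II 3, complex III 8, complex IV 18 and complex V 16. Ndufa4, whose product is now counted with complex IV, stayed with complex I by its name. By role, 79 are subunits or subunit-like proteins, 5 are complex I assembly factors (Ndufaf1, Ndufaf3, Ndufaf4, Ndufaf5 and Ndufaf7) and 1, Ndufs5-ps, is annotated as a pseudogene. Each gene was read by its brightest probe.

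The study hybridised 48 Illumina MouseRef-8 bead arrays, cortex and striatum of 24 mice on the FvB/NJ background. BACHD-ΔN17 mice carry a bacterial artificial chromosome with mutant human huntingtin that lacks N17, the N-terminal segment of the protein, and were compared with wild-type mice at 2, 7 and 11 months of age. Each of the 12 groups of region, genotype and age held 4 mice, 2 males and 2 females. No mouse carrying the transgene with N17 intact was analysed here, so the comparisons speak of the whole transgene and not of the missing segment. RNA came from whole dissected tissue, in which fewer cells of a type and less RNA per cell cannot be told apart.

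The respiratory chain sits in the inner mitochondrial membrane. Complexes I and II pass electrons from NADH and succinate to ubiquinone, complex III passes them on to cytochrome c and complex IV to oxygen; complex V, the ATP synthase, uses the resulting proton gradient to make ATP. All members are encoded in the nucleus, and many have tissue isoforms, of which complex IV has the most. Deficits of complexes II, III and IV have long been described in the striatum of people with Huntington's disease, and neurons depend on the chain for most of their ATP.

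Nuclear genes of the chain are known targets of NRF-1, of the ETS family factor GABP, of YY1 and of the estrogen-related receptors, so the promoters were searched for short core sequences of these factors. RefSeq promoter windows (GRCm38.p6, 250 bases before to 50 bases after the start) matched 70 of the 85 members. The motifs were GCATGCGC for NRF-1, CCGGAAGT for ETS factors, AANATGGC for YY1 and TNAAGGTCA for the estrogen-related receptors, on both strands. The NRF-1 letters stood in 11 of 70 members (15.7%), against 3.05% of all 27025 genes with a window. The YY1 letters stood in 18 members (25.7%), against 6.96% of all genes, and 13 of those 18 belonged to complex I, where 36.1% of 36 genes held them. The ETS letters stood in 5 members (7.14%, against 4.31%) and those of the estrogen-related receptors in 3 (4.29%, against 1.43%). In all, 36 members held at least 1 of the 4 motifs, and no NRF-1 match overlapped an ETS match. A match is a description of these letters and not a site of binding.

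The 4 windows below show what such promoters look like, for genes whose levels are described further on; capitals mark the motif. Ndufaf4 (chr4:24897833-24898132, plus strand) holds 3 NRF-1 matches and Uqcrc1 (chr9:108936398-108936697, plus strand) 2, counting both strands of the palindrome-like run in which matches overlap. Cox8a (chr19:7217567-7217866, minus strand) holds 2 ETS matches, and Ndufs4 (chr13:114388045-114388344, minus strand) 1 YY1 match.
Ndufaf4 promoter: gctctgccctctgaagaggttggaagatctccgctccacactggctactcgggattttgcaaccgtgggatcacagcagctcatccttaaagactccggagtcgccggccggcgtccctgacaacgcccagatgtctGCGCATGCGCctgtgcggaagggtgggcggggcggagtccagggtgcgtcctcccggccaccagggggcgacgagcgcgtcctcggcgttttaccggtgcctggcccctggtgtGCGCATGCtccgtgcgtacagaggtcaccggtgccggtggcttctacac
Uqcrc1 promoter: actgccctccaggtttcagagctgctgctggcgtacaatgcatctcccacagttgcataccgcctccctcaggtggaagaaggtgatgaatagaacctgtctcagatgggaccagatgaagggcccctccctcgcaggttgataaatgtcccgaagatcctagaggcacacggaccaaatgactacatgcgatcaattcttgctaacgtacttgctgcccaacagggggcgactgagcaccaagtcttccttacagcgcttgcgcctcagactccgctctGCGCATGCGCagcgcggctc
Cox8a promoter: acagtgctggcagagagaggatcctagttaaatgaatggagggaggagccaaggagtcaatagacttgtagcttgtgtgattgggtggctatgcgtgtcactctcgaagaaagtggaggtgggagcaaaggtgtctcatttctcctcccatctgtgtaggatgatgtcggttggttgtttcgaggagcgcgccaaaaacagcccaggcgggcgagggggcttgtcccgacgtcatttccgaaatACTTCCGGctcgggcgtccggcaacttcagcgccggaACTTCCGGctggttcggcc
Ndufs4 promoter: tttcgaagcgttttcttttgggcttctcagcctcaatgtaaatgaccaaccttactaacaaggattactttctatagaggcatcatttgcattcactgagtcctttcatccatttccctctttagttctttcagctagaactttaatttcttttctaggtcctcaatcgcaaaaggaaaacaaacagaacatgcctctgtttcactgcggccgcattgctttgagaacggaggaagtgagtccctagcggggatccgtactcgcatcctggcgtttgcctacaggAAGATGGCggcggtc

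Levels are given as log2 normalised intensity, and differences between groups as log2 differences on that scale. Between 12477 and 14378 probes were detected per array. The 8 arrays with the internal sample numbers 1 to 8 in the labels were the dimmest, with 12477 to 13187 probes, against 13226 to 14378 on the other 40. Of the 85 members, 74 were detected on all 48 arrays and 79 were tested in each region: 39 of complex I, 3 of complex II, 7 of complex III, 15 of complex IV and 15 of complex V. The probes of Ndufs1, Uqcrq, Cox7b2, Cox8c and Atp5k were detected on 0 arrays and that of Cox4i2 on 3 striatal arrays, so these 6 genes were not tested. Ndufab1, Uqcrfs1, Cox6b2, Cox8b and Ndufb11 were tested although not every array detected them. Differences were tested with limma, and a member was called at a Benjamini-Hochberg adjusted p under 0.05 over all features tested in the region. Counts of members at an unadjusted p under 0.05 are given without the share of all features at that threshold. They are therefore not read against a background.

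**Figure D1:**
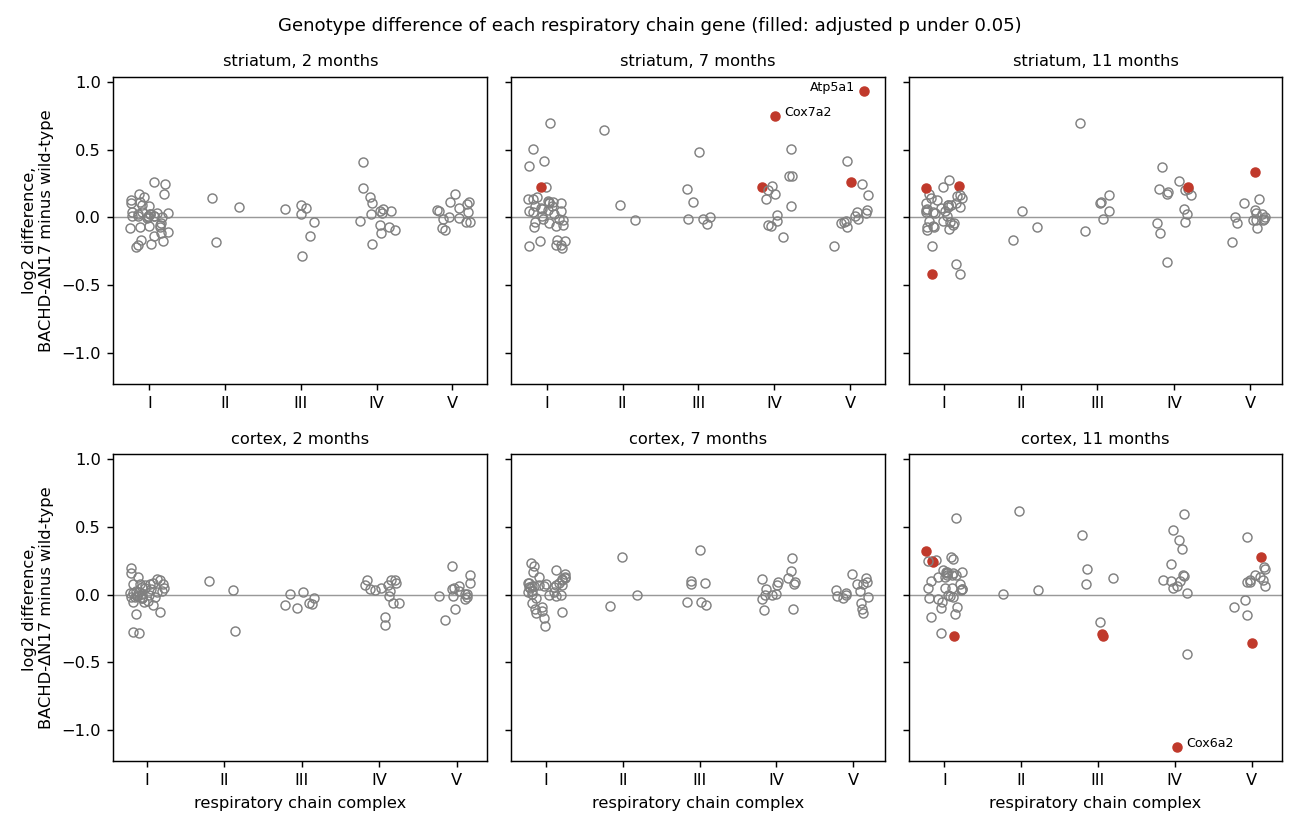
Log2 difference of each tested member between BACHD-ΔN17 and wild-type mice, by complex, region and age (1 point per gene, vertical axis in log2 units, filled where called). Most points lie near 0 at every age, and Cox6a2 in cortex at 11 months, at -1.12, lies farthest from it.

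At 2 months no member was called in either region. In striatum 0 of 79 members passed limma's test, against 0.00891% of all 11225 features, and 6 members had an unadjusted p under 0.05. In cortex 0 of 79 passed, against 0% of all 11047 features, and 1 had an unadjusted p under 0.05. The 95% interval of the difference lay within 0.5 of 0 for 64 of 79 members in striatum (81.0%), against 58.4% of all features. Such a share depends on the width of the intervals, and members were not matched to all features for brightness. The median member difference was 0.02 in both regions.

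In striatum at 7 months 5 of 79 members rose in BACHD-ΔN17 mice and none fell, when 12.6% of all features were called (5.28% higher and 7.29% lower). They were Atp5a1, Cox7a2, Atp5g1, Ndufc2 and Cox4i1, and 14 members had an unadjusted p under 0.05. As a share of 79, the 5 calls were fewer than the background over both directions and close to that of higher calls. The median difference over the 79 members was 0.06, against 0.01 over all features. The summed linear intensity of 8 markers of striatal projection neurons was 57696.7 to 66100.1 in BACHD-ΔN17 and 96654.4 to 98889 in wild-type striata. The part of that shift in the members' values was not tested.

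Atp5a1, the catalytic-core alpha subunit of ATP synthase, read 11.08, 11.05, 11.03 and 11.31 in the 4 BACHD-ΔN17 striata at 7 months, against 10.55, 10.76, 9.55 and 9.88 in wild-type striata. The groups did not overlap, and the wild-type mice spread far more widely (SD 0.13 in BACHD-ΔN17 and 0.56 in wild-type, n = 4 each). The difference was 0.93 (SE 0.29, limma adjusted p = 0.0307). Cox7a2, the broadly expressed isoform of complex IV subunit VIIa, read 10.02, 9.74, 9.84 and 10.09 in BACHD-ΔN17 and 9.19, 9.61, 8.95 and 8.92 in wild-type striata. The difference was 0.75 (SE 0.24, limma adjusted p = 0.0381), and again the groups did not overlap.

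Both wild-type samples that read lowest for Atp5a1 and Cox7a2 came from arrays whose sample numbers lie between 33 and 48, while every BACHD-ΔN17 striatal array at 7 and 11 months has a number between 1 and 32. What these numbers record is not given in the sources used here. Over all striatal arrays Atp5a1 lay between 9.23 and 10.3 on the 6 arrays numbered 33 to 48 and between 10.5 and 11.3 on the 18 numbered 1 to 32. With the 2 sets of numbers as a term in the fit, the Atp5a1 difference at 7 months was 0.44 (limma adjusted p = 0.0584) and that of Cox7a2 was 0.44 (adjusted p = 0.144). In that fit 0 of 79 members were called in striatum at 7 months, against 10.8% of all features. The other 3 differences kept their size in it: Atp5g1 was 0.26, Cox4i1 0.22 and Ndufc2 0.22 (limma adjusted p = 0.0639, 0.0586 and 0.0837, in that order). The fit was chosen after the data were seen.

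**Figure D2:**
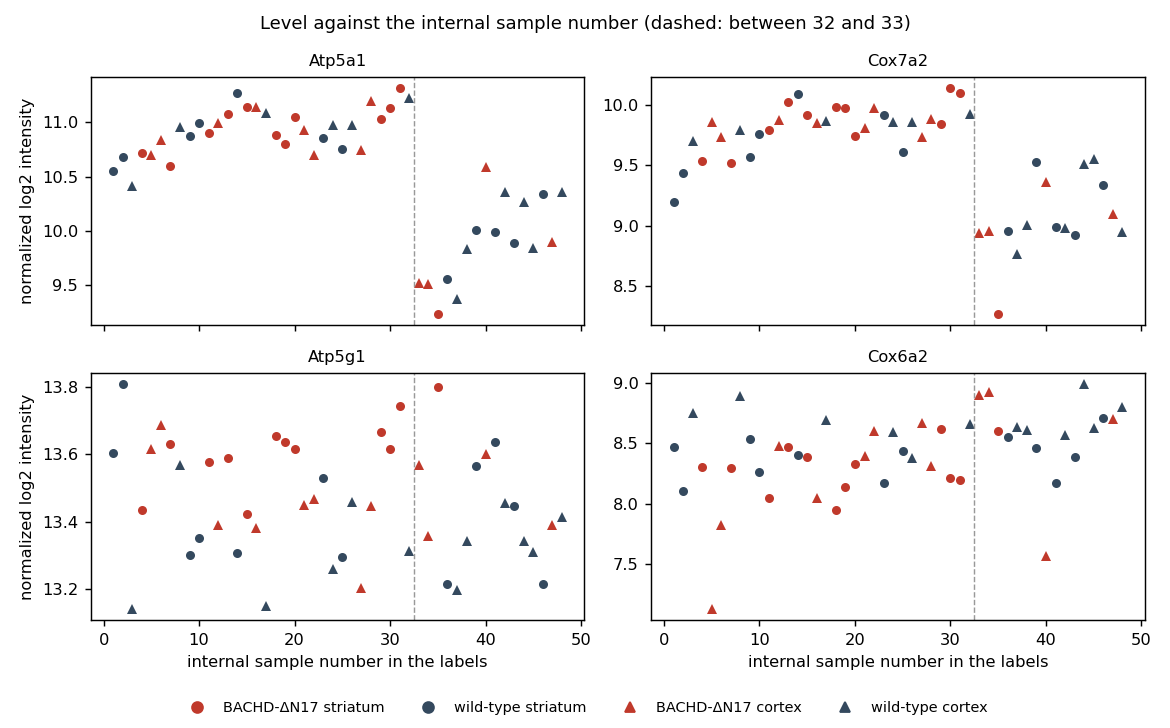
Log2 intensity of Atp5a1, Cox7a2, Atp5g1 and Cox6a2, on every array against the internal sample number in the labels (horizontal axis; circles striatum, triangles cortex, BACHD-ΔN17 red and wild-type dark blue). Atp5a1 in striatum lies between 9.23 and 10.3 on arrays numbered 33 to 48 and between 10.5 and 11.3 on arrays numbered 1 to 32.

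The array sets were therefore measured over all members. With genotype, age and sex in the fit, 12 of 79 members were lower and 1 was higher on striatal arrays numbered 33 to 48 than on those numbered 1 to 32, when 11.3% of all features were called (2.92% higher and 8.39% lower). In cortex 17 members were lower and 10 higher, when 21.5% of all features were called (10.2% higher and 11.3% lower). In striatum the members with the largest such differences were Sdhd (-1.22), Ndufb2 (-1.20), Atp5a1 (-0.98), Ndufb9 (-0.97), Uqcrb (-0.87), Atp5e (-0.76), Ndufb5 (-0.76), Cox7a2 (-0.63) and Cox6c (-0.61), which span all 5 complexes. None of these 9 genes is called in any genotype comparison at 11 months. In cortex Ndufa10 (0.17, limma adjusted p = 0.0259) and Atp5c1 (0.12, adjusted p = 0.0243) were higher on arrays numbered 33 to 48. Both are also called between genotypes in cortex at 11 months. With the 2 sets as a term their genotype differences were -0.26 and 0.31 (limma adjusted p = 0.0333 and 0.00117, in that order).

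The other 3 members that rose in striatum at 7 months moved less and were brighter. Cox4i1, the main isoform of complex IV subunit IV, lay between 14.50 and 14.63 in BACHD-ΔN17 mice and between 14.34 and 14.38 in wild-type mice, a difference of 0.22 (SE 0.07, limma adjusted p = 0.0297). Ndufc2, an accessory membrane-arm subunit of complex I, lay between 13.13 and 13.33 in BACHD-ΔN17 and between 12.90 and 13.08 in wild-type mice (0.23, SE 0.08, limma adjusted p = 0.0466). Neither pair of groups overlapped. Atp5g1, which encodes a proton-carrying c-ring subunit of ATP synthase, read 13.59, 13.62, 13.67 and 13.74 in BACHD-ΔN17 and 13.60, 13.29, 13.22 and 13.45 in wild-type mice, so that 1 wild-type sample overlapped (0.26, SE 0.08, limma adjusted p = 0.0381).

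In striatum at 11 months 4 of 79 members rose and 1 fell in BACHD-ΔN17 mice, when 18.9% of all features were called (8.73% higher and 10.1% lower). Atp5g1, Ndufb6, Cox8a and Ndufc2 rose, with signs that turned when arrays were only scaled, and Ndufaf4 fell. By unadjusted p under 0.05 the count was 17 members. Beside these, 7 of 8 tested markers of striatal projection neurons fell, with a median difference of -1.06, and their summed linear intensity was 48808.3 to 52362.1 in BACHD-ΔN17 and 90989.8 to 101692 in wild-type striata. The part of that shift in the members' values was not tested. The median over the 79 members was 0.05, against 0.02 over all features.

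Atp5g1 read 13.63, 13.65, 13.64 and 13.62 in BACHD-ΔN17 and 13.30, 13.35, 13.31 and 13.22 in wild-type striata at 11 months. All 4 BACHD-ΔN17 samples lay above all wild-type samples, and the difference was 0.34 (SE 0.08, limma adjusted p = 0.00456). Ndufb6, an accessory membrane-arm subunit of complex I, read 13.55, 13.62, 13.67 and 13.44 in BACHD-ΔN17 against 13.34, 13.34, 13.35 and 13.32 in wild-type mice (0.23, SE 0.06, limma adjusted p = 0.00793). Those groups did not overlap either, but a second Ndufb6 probe gave -0.16, so the gene's probes disagree; their mean gave 0.036. Cox8a, the ubiquitous isoform of complex IV subunit VIII, read 14.63, 14.71, 14.57 and 14.66 in BACHD-ΔN17 and 14.36, 14.53, 14.48 and 14.29 in wild-type mice (0.23, SE 0.08, limma adjusted p = 0.0384), without overlap. Ndufc2 read 13.30, 13.21, 13.14 and 13.26 in BACHD-ΔN17 and 13.04, 12.94, 13.04 and 13.00 in wild-type mice (0.22, SE 0.08, limma adjusted p = 0.0415), also without overlap.

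These 4 rises depended on quantile normalisation. With each array only scaled, Atp5g1 was -0.027, Cox8a -0.13, Ndufb6 -0.13 and Ndufc2 -0.10, but the same scaling put the median of all striatal features at -0.13 and that of the members at -0.25. All 4 still lay above that median, Cox8a and Ndufb6 only just. Scaling also changed the share of higher calls among all called features to 17.2%, against 46.2% in the quantile-normalised values.

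Ndufaf4, which helps to assemble the peripheral arm of complex I and carries the NRF-1 matches printed above, moved the other way. It read 10.80, 10.92, 10.91 and 11.19 in BACHD-ΔN17 striata and 11.37, 11.04, 11.52 and 11.55 in wild-type striata at 11 months. The highest BACHD-ΔN17 sample lay above the lowest wild-type sample, and the difference was -0.42 (SE 0.12, limma adjusted p = 0.0172). With each run of 8 internal sample numbers as a term it was -0.099 (adjusted p = 0.723). In cortex at the same age it averaged 11.00 ± 0.18 in BACHD-ΔN17 and 10.95 ± 0.20 in wild-type mice (SD, n = 4 each). None of the other 4 assembly factors of complex I within the name rule was called in striatum.

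Read by complex, the median striatal difference at 11 months was 0.05 in complex I, -0.07 in complex II, 0.11 in complex III, 0.17 in complex IV and 0.00 in complex V. Calls fell on 3 of the 39 tested genes of complex I, on 1 of 15 in complex IV and on 1 of 15 in complex V, and on 0 of 3 in complex II and 0 of 7 in complex III. Of other central subunits, Ndufv1, the NADH-binding subunit, gave 0.14, Sdhb, the iron-sulfur subunit of succinate dehydrogenase, -0.17, Cox5a 0.03, Cox5b -0.04 and Atp5b, the catalytic beta subunit, 0.03. None was called, and each 95% interval lay within 0.5 of 0. Atp5a1 gave -0.02, with a wide interval of -0.61 to 0.57. Uqcrfs1, the Rieske iron-sulfur protein of complex III, gave 0.70 (limma adjusted p = 0.0720) but was detected on only 8 of 24 striatal arrays. Cox4i1 gave 0.16 (limma adjusted p = 0.096). The 95% interval lay within 0.5 of 0 for 59 of 79 members (74.7%), so for those members a change above that size is outside the interval. The share of all features was 41.0%, again without matching for brightness.

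In cortex at 7 months 0 of 79 members were called by limma, against 1.77% of all features, and 2 had an unadjusted p under 0.05. The 95% interval lay within 0.5 of 0 for 65 of 79 members (82.3%), a count given here without the share of all features. With the 2 sets of sample numbers as a term, 0 members were called, against 2.78% of all features.

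In cortex at 11 months 4 of 79 members rose and 5 fell in BACHD-ΔN17 mice, when 16.1% of all features were called (6.97% higher and 9.16% lower). Ndufc2, Atp5c1, Ndufa1 and Ndufb6 rose; Cox6a2, Atp5d, Ndufa10, Uqcr10 and Uqcrc1 fell. A share of 9 in 79 is below the background. By unadjusted p under 0.05 the count was 22 members, given without the share of all features at that threshold. The median over members was 0.11, against 0.02 over all features, and with arrays only scaled 0.07, against 0.03. Of the 79 differences 59 were above 0, a count given without the share of all features and not read against a background. Cox6a2 was the only member that changed by more than 0.5 and passed the test.

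Cox6a2 encodes the isoform of complex IV subunit VIa known from heart and skeletal muscle, where Cox6a1 is the isoform of most other tissues; in mouse brain Cox6a2 is known from parvalbumin interneurons. In cortex at 11 months it read 7.82, 7.57, 7.13 and 8.04 in BACHD-ΔN17 mice, against 8.89, 8.61, 8.75 and 8.80 in wild-type mice. All 4 BACHD-ΔN17 samples lay below all wild-type samples. The difference was -1.12 (SE 0.17, 95% interval -1.47 to -0.78, limma adjusted p = 3.96e-05), which is a level lower by a factor of 2.18. On the authors' deposited log2 values the difference was smaller, -0.68 (limma adjusted p = 5.37e-05). Group means were 7.64 ± 0.39 in BACHD-ΔN17 and 8.76 ± 0.12 in wild-type cortex (SD, n = 4 each).

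Earlier cortex showed no such gap. At 2 months Cox6a2 read 8.60, 8.70, 8.66 and 8.92 in BACHD-ΔN17 and 8.59, 8.38, 8.99 and 8.63 in wild-type mice. At 7 months it read 8.90, 8.31, 8.39 and 8.48 in BACHD-ΔN17 and 8.65, 8.63, 8.57 and 8.69 in wild-type mice. The groups overlapped at both ages. The change of the genotype difference between 2 and 11 months was -1.20 in cortex (limma adjusted p = 0.00389), the single called member of 79 in a comparison that called 3.97% of all features, with 10 members at an unadjusted p under 0.05. On the authors' deposited log2 values that change was -0.73 (limma adjusted p = 0.0046).

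In striatum at 11 months Cox6a2 read 8.29, 7.94, 8.14 and 8.21 in BACHD-ΔN17 and 8.53, 8.26, 8.41 and 8.70 in wild-type mice. The highest BACHD-ΔN17 sample lay just above the lowest wild-type sample, and the difference of -0.33 was not called (limma adjusted p = 0.107). Within mice, the genotype difference was 0.79 larger in striatum than in cortex, that is, less negative (limma adjusted p = 0.00619), and 0.47 larger on the authors' deposited log2 values (adjusted p = 0.00513). This was the only member called among 79 in the test of the genotype difference between regions at 11 months, when 5.05% of all features were called and 7 members had an unadjusted p under 0.05. At 7 months 0 members were called in that test, against 1.53% of all features, with 4 members at an unadjusted p under 0.05.

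The Cox6a2 difference in cortex rested on no single mouse: leaving out each of the 8 mice in turn gave -1.27 to -0.94, and each value passed the test. The BACHD-ΔN17 samples at 7.13 and 7.82 were among the dim arrays numbered 1 to 8, which also held 2 of the wild-type cortical samples of that age. Leaving out arrays 1 to 8 left 2 mice of each genotype in cortex at that age. The difference was then -0.86 (limma adjusted p = 0.0217), and the change since 2 months was -0.93 (adjusted p = 0.0686). For the difference between regions every mouse with an array numbered 1 to 8 was left out whole, which also left 2 mice of each genotype. That difference was 0.39 (limma adjusted p = 0.619). The part of the smaller groups in these values was not tested.

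Markers of other cells were read beside Cox6a2. Of 8 listed genes of skeletal and heart muscle 7 had a probe and 1, Acta1, was tested in cortex, where it fell by 0.84 at 11 months (SE 0.13, limma adjusted p = 6.73e-05). Its linear intensity was 432.475 to 656.184 in BACHD-ΔN17 and 918.795 to 1230.35 in wild-type cortex, while Ckm, Tnnt3, Mb and Tnni3 were detected on no cortical array. Of interneuron genes, which were chosen after their values were seen, Pvalb gave -0.27 (limma adjusted p = 0.0153), Sst -0.48 (0.0168), Cort -0.98 (0.00888) and Npy -0.65 (2.88e-06). In cortex at 7 months, where Cox6a2 was not called, Npy was lower (-0.46, limma adjusted p = 0.00116). Pvalb, Sst and Cort were not called there, and Acta1 averaged 9.30 in BACHD-ΔN17 and 10.00 in wild-type mice. In striatum at 11 months Npy was lower (-0.83, limma adjusted p = 1.82e-07). Pvalb (0.47), Sst (-0.24) and Cort (-0.11) were not called in striatum at that age. Acta1 there averaged 8.47 in BACHD-ΔN17 (8.23 to 8.63) and 9.01 in wild-type mice (8.88 to 9.30), without overlap. The summed linear intensity of these interneuron genes was 20733.9 to 25706.2 in BACHD-ΔN17 and 30658.2 to 32823.2 in wild-type cortex at 11 months, without overlap. Sums also stood apart for cortical excitatory neurons (12221.6 to 14043.2 against 15575 to 18356.4) and pan-neuronal markers (62072 to 66431.1 against 67351 to 77633). So did those for striatal projection neurons (3839.11 to 5089.12 against 7021.62 to 8586.99). Sums for astrocytes, microglia, oligodendrocytes, endothelial cells, choroid plexus and erythroid cells overlapped. The part of these shifts in the Cox6a2 result was not tested.

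**Figure D3:**
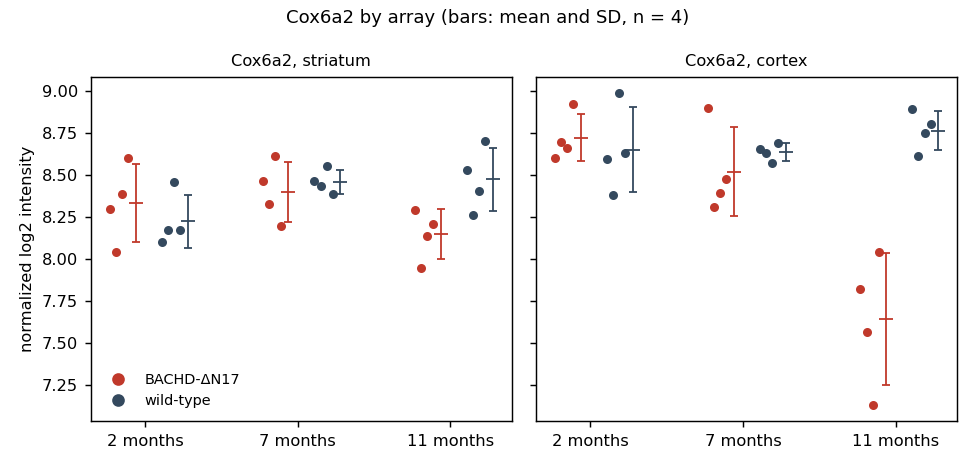
Log2 intensity of Cox6a2 in each mouse by region and age, BACHD-ΔN17 left of wild-type (1 point per mouse, bars at mean and SD, n = 4). In cortex at 11 months the BACHD-ΔN17 mice lie between 7.13 and 8.04 and the wild-type mice between 8.61 and 8.89.

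Of the other complex IV isoforms, 3 are given here for cortex at 11 months, none of them called. Cox6a1 gave 0.14 (limma adjusted p = 0.149), Cox7a1, the muscle isoform of subunit VIIa, -0.43 (0.068) and Cox8b, the muscle isoform of subunit VIII, 0.60 (0.097). With the 2 sets of sample numbers as a term, Cox8b was 0.69 and called (limma adjusted p = 0.0212). Of the 3 genes for the c-ring subunit of ATP synthase, Atp5g2 gave -0.02 in striatum and -0.15 in cortex and Atp5g3 gave 0.03 in striatum and 0.19 in cortex at 11 months. Atp5g1, called in striatum, gave 0.20 in cortex at 11 months and was not called there (limma adjusted p = 0.117), and the differences between the 3 genes were not tested.

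The remaining cortical calls were each under 0.4 in size. Atp5d, the delta subunit in the central stalk of ATP synthase, read 12.31, 12.16, 12.26 and 12.00 in BACHD-ΔN17 and 12.46, 12.57, 12.75 and 12.38 in wild-type cortex (-0.36, SE 0.09, limma adjusted p = 0.00758). Atp5c1, the gamma subunit of the same stalk, read 13.71, 13.98, 13.60 and 13.71 in BACHD-ΔN17 and 13.44, 13.39, 13.48 and 13.58 in wild-type cortex (0.28, SE 0.07, limma adjusted p = 0.0114). Neither pair of groups overlapped, so on the quantile-normalised values subunits of 1 stalk differed in opposite directions. With arrays only scaled 0 members were called higher in cortex at 11 months and 1 lower, so Atp5c1 was not called. Without BACHD-ΔN17 replicate 2 Atp5c1 no longer passed the test (limma adjusted p = 0.0655).

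In complex I, Ndufc2 read 13.28, 13.23, 13.42 and 13.10 in BACHD-ΔN17 and 13.03, 12.95, 12.78 and 12.98 in wild-type cortex (0.32, SE 0.08, limma adjusted p = 0.00557). Ndufa1, a small membrane-arm subunit, read 13.75, 13.73, 13.84 and 13.72 in BACHD-ΔN17 and 13.57, 13.46, 13.49 and 13.52 in wild-type cortex (0.25, SE 0.07, limma adjusted p = 0.0113). Both sets of groups stood apart. Ndufb6 read 13.88, 13.58, 13.66 and 13.64 in BACHD-ΔN17 and 13.48, 13.47, 13.38 and 13.45 in wild-type cortex (0.24, SE 0.07, limma adjusted p = 0.0116), while its second probe gave -0.07 and the mean of both 0.086. Without the dim arrays numbered 1 to 8, Ndufc2 was 0.21 (limma adjusted p = 0.229) and Ndufb6 0.15 (adjusted p = 0.283). Ndufa10, an accessory subunit of the same arm, read 12.73, 13.21, 12.70 and 12.89 in BACHD-ΔN17 and 12.89, 13.39, 13.31 and 13.16 in wild-type cortex, with overlap (-0.31, SE 0.10, limma adjusted p = 0.0450).

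In complex III, Uqcrc1, a core protein whose promoter is printed above, read 12.20, 12.49, 12.65 and 12.66 in BACHD-ΔN17 and 13.00, 12.78, 12.54 and 12.83 in wild-type cortex (-0.29, SE 0.10, limma adjusted p = 0.0415), with overlap. Uqcr10, a small subunit, read 13.72, 14.48, 14.32 and 14.27 in BACHD-ΔN17 and 14.48, 14.51, 14.49 and 14.50 in wild-type cortex (-0.30, SE 0.10, limma adjusted p = 0.0309). Without the BACHD-ΔN17 sample at 13.72 the Uqcr10 difference was -0.14 (limma adjusted p = 0.132), and a second probe gave -0.02. Central subunits that were not called included Ndufv1 (0.05), Sdhb (0.04), Cox5a (0.05), Cox5b (0.14) and Atp5b (0.11). The 95% interval lay within 0.5 of 0 for 57 of 79 members (72.2%), against 39.4% of all features, not matched for brightness.

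**Figure D4:**
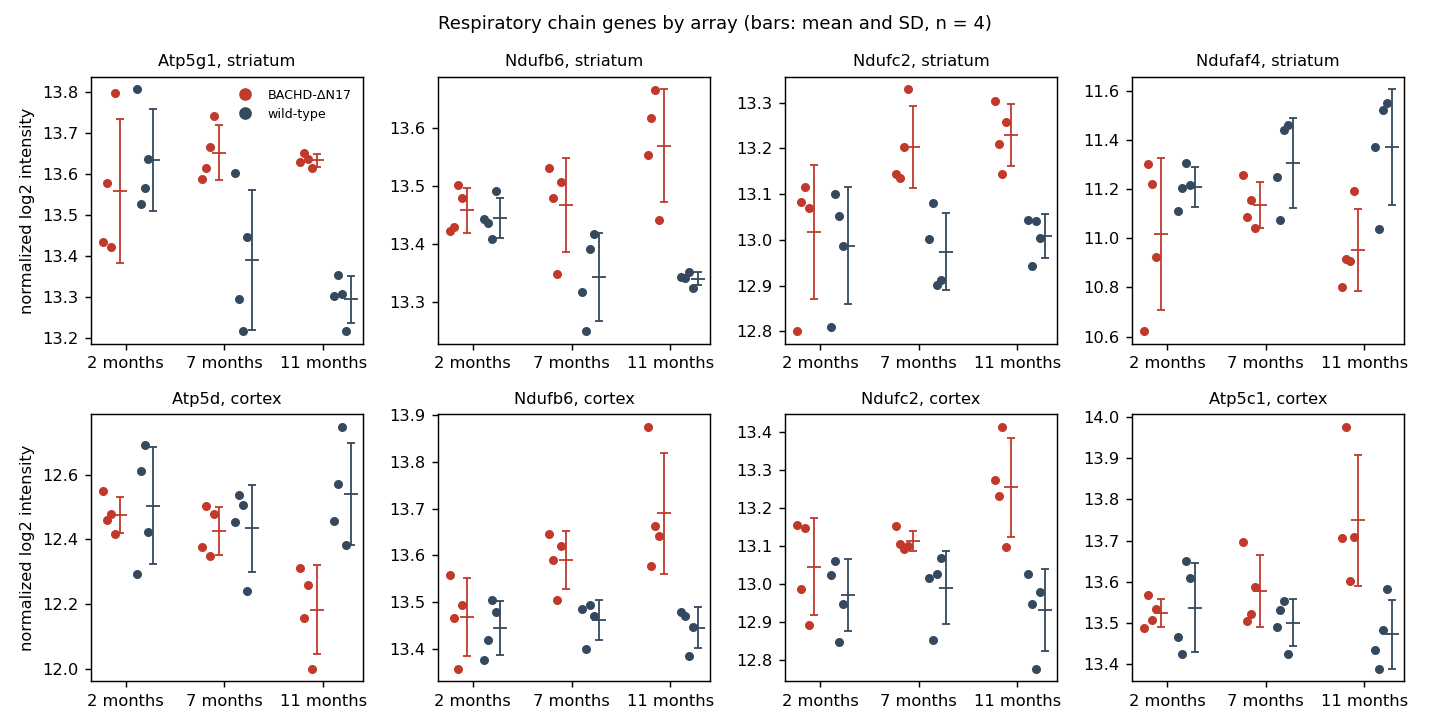
Log2 intensity in each mouse at 2, 7 and 11 months, BACHD-ΔN17 left of wild-type (bars at mean and SD, n = 4), for Atp5g1, Ndufb6, Ndufc2 and Ndufaf4 in striatum and Atp5d, Ndufb6, Ndufc2 and Atp5c1 in cortex. At 11 months the genotypes overlap in the Ndufaf4 panel alone.

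Ndufb6 and Ndufc2 were called higher in both regions at 11 months, though in neither region with arrays only scaled, which are 2 of the 5 striatal and 2 of the 9 cortical calls. Atp5g1 and Ndufc2 were called higher in striatum at both 7 and 11 months. The regions came from the same mice, so these overlaps are not independent. By complex, the cortical medians at 11 months were 0.10 in complex I, 0.04 in complex II, 0.08 in complex III, 0.11 in complex IV and 0.11 in complex V. With the 2 sets of sample numbers as a term, 7 members were called in striatum at 11 months (5 higher and 2 lower), against 22.1% of all features, and 12 in cortex (7 higher and 5 lower), against 20.2%.

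Few features were called between ages in wild-type mice, with 4 mice at each age. Between 2 and 11 months 0 of 79 members were called by limma in wild-type striatum, against 0.134% of all features, with 8 at an unadjusted p under 0.05. In wild-type cortex 0 were called, against 0.0181%, with 1 at an unadjusted p under 0.05. The change of the genotype difference in striatum between 2 and 11 months was called for 1 member, Atp5g1, at 0.42 (limma adjusted p = 0.0298), when 6.66% of all features were called and 9 members had an unadjusted p under 0.05. With arrays only scaled it was 0.058. At 2 months Atp5g1 had read 13.43, 13.58, 13.42 and 13.80 in BACHD-ΔN17 and 13.81, 13.53, 13.57 and 13.64 in wild-type striata. Group means at 2 and 11 months were 13.56 ± 0.18 and 13.63 ± 0.02 in BACHD-ΔN17 mice, and 13.63 ± 0.12 and 13.29 ± 0.06 in wild-type mice (SD, n = 4 each). The wild-type difference between these ages was -0.34 (limma adjusted p = 0.116), so the gap at 11 months goes with a lower wild-type level and with a level in BACHD-ΔN17 mice close to that at 2 months.

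More members were called between regions than between genotypes, in a test over 12 mice rather than 4 a group. Within the 12 wild-type mice 24 of 79 members were higher in striatum than in cortex and 6 were lower, when 54.9% of all features were called (28.3% higher and 26.6% lower), and 32 members had an unadjusted p under 0.05. The members' share of calls was below the background, and their median difference was 0.07, against 0.01 over all features. Complex I gave 14 higher and 1 lower of 39, complex II 1 and 0 of 3, complex III 1 and 1 of 7, complex IV 4 and 3 of 15, and complex V 4 and 1 of 15.

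Cox7a1 differed most: it was lower in striatum by 0.75 (SE 0.09, limma adjusted p = 3.14e-07), in 12 of 12 mice, with differences between -1.37 and -0.24, and by 0.43 on the authors' deposited log2 values. Cox6a2 was lower in striatum in 12 of 12 mice (-0.30, limma adjusted p = 0.000763), as was Cox8a (-0.22, limma adjusted p = 0.000857). Ndufa10 (-0.31, 11 of 12 mice), Atp5d (-0.25) and Uqcrc1 (-0.13) were the other 3 members lower in striatum. Cox7a1 and Cox6a2 are muscle isoforms and Cox8a a ubiquitous one. The muscle isoform Cox8b gave -0.10 and was not called (limma adjusted p = 0.574, below 0 in 7 of 12 mice).

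Ndufa1 was higher in striatum by 0.41 (SE 0.05, limma adjusted p = 2.75e-07), in 12 of 12 mice. Next came Uqcrb, a subunit of complex III (0.39, limma adjusted p = 0.0336, higher in 9 of 12 mice), which also differed between the 2 sets of array numbers. Atp5o, the subunit that joins the stalk to the catalytic head of ATP synthase, was higher by 0.37, Cox7a2l, a factor of supercomplex assembly, by 0.37, Ndufaf4 by 0.36 and Ndufs4, a complex I subunit whose loss causes Leigh-like disease in mice, by 0.34. Sdhc, a membrane anchor of complex II, was higher by 0.33. Each of these passed the test, but Uqcrb no longer did without any 1 of 5 of the 12 mice (limma adjusted p up to 0.114), nor did the lower Uqcrc1 without any 1 of 4 (up to 0.0719).

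**Figure D5:**
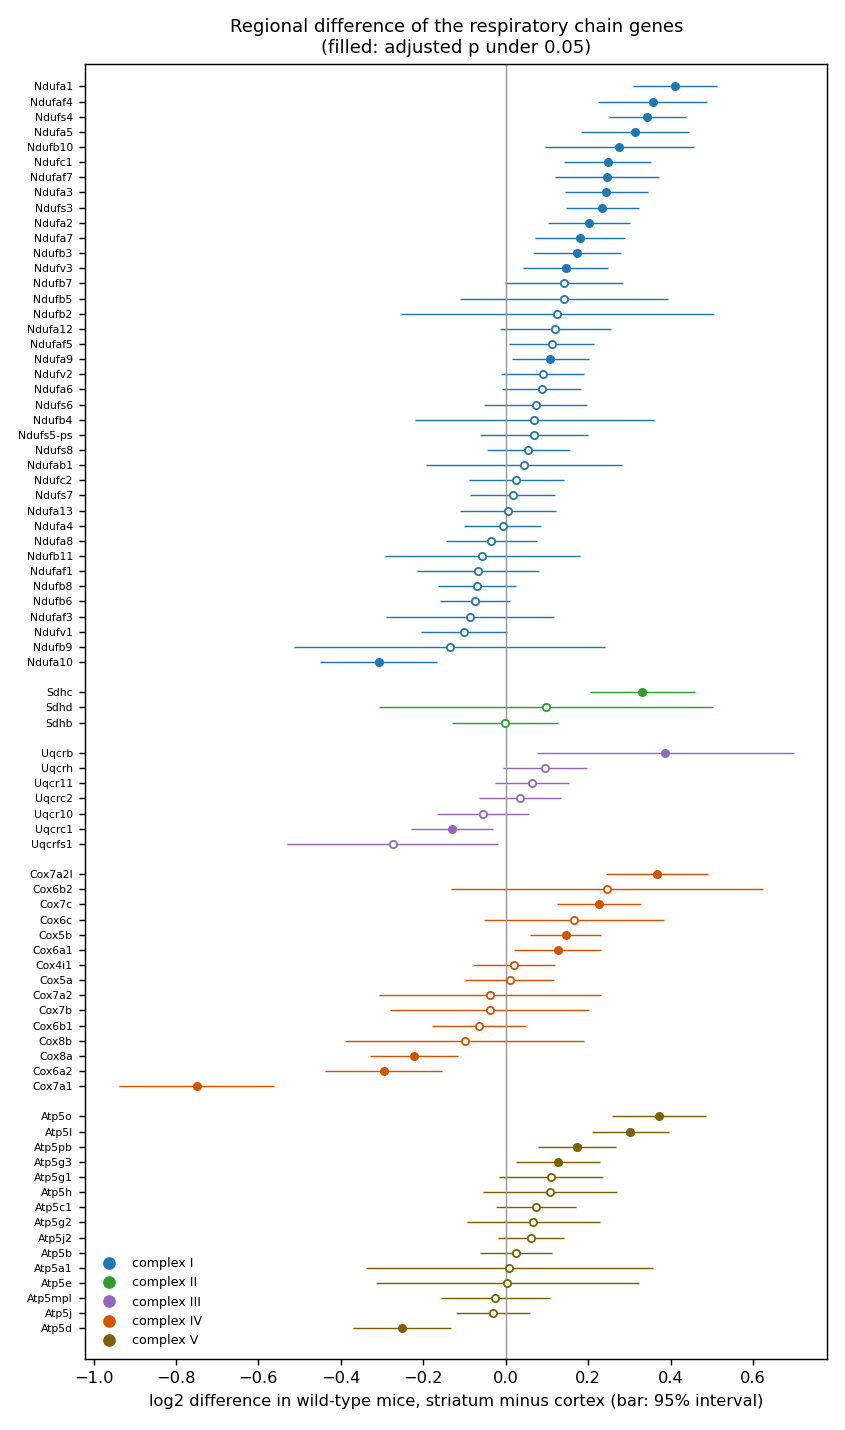
Striatum minus cortex in the 12 wild-type mice for the 79 tested members, in log2 units, grouped by complex (point and 95% interval, filled where called). Cox7a1 lies farthest below 0, at -0.75, and Ndufa1 farthest above it, at 0.41.

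Neighbouring pathways, listed with earlier results of these data known, were read against the share of all features called, which was 18.9% in striatum and 16.1% in cortex at 11 months. In striatum assembly factors and cytochrome c outside the name rule gave 1 higher and 2 lower of 28: Surf1, a complex IV assembly factor, rose by 0.36, Bcs1l, which inserts the Rieske protein into complex III, fell by 0.58, and Ttc19, another complex III factor, fell by 0.40. The citric acid cycle and pyruvate dehydrogenase gave 2 higher and 0 lower of 14, namely Idh3a (0.41) and Pdhb (0.31). Among 13 regulators and genes of mitochondrial genome maintenance Ssbp1, which binds single-stranded mitochondrial DNA, rose by 0.39 and Ppargc1b, a coactivator of mitochondrial genes, fell by 0.64 (limma adjusted p = 1.06e-05). Among 24 genes of import and inner-membrane carriers 0 rose and 2 fell, the import receptor Tomm70a (-0.86) and the outer-membrane channel Vdac1 (-0.44), and glycolysis gave 0 calls of 14.

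In cortex at 11 months Surf1 again rose (0.43, limma adjusted p = 0.00376), the only call among 27 assembly genes. Regulators gave 1 of 13, Polrmt, the mitochondrial RNA polymerase (0.32), and the citric acid cycle 0 of 14. Of 24 import and carrier genes Slc25a5, an ADP/ATP carrier (0.26), and Hspa9, the matrix chaperone (0.21), rose and the prohibitin gene Phb2 fell by 0.33. Glycolysis gave 1 of 14, the neuronal enolase Eno2 (-0.25). Ppargc1a, the coactivator best known for inducing mitochondrial genes, was not called in either region at 11 months (-0.03 in striatum and -0.25 in cortex, limma adjusted p = 0.106 in cortex), and Tfam, which packages mitochondrial DNA, gave 0.16 in striatum and 0.13 in cortex and was not called. The genes Nrf1, Gabpa and Esrra, whose factors bind motifs searched above, were not called between genotypes at 11 months. Esrra in striatum gave -0.28 (limma adjusted p = 0.0553). The gene for YY1, whose motif was also searched, is not described here.

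Between regions of wild-type mice the lists are read against the 54.9% of all features called there (28.3% higher and 26.6% lower). Regulators were higher in striatum for 9 of 13 and lower for 0, with Twnk, the mitochondrial helicase, at 0.74, Gabpa at 0.69 and Nrf1 at 0.28. Assembly factors outside the name rule gave 9 higher and 2 lower of 28, with Cox20 at 0.90 and the copper chaperone Cox17 at 0.45. Import and carrier genes gave 10 higher and 5 lower of 24, and the citric acid cycle 3 higher and 4 lower of 14. Glycolysis gave 0 higher and 8 lower of 14.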

How the data were processed

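Cortex and striatum of 24 mice were read on 48 bead arrays, for which the authors deposited bead intensity and a detection p-value per probe, not normalised, and a second table of log2 values that they had normalised. The deposited log2 values have the same median, 7.94, in every column, and were used as an alternative. Probe symbols came from the platform annotation: of 25697 probes 23978 have 1 symbol and 1719 have none.

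In R 4.3.3, limma 3.58.1 corrected background and quantile normalised the intensities (neqc, offset 16). The brightest probe stood for a gene (16 members have more than 1). Features detected (p under 0.05) on at least 4 arrays of a region were tested there. Groups and sex were fitted in each region with a variance trend; region comparisons used differences within each mouse, matched by the labels, and a sex term. Benjamini-Hochberg adjustment ran over all features tested. Groups have 4 animals, so precision rests on few arrays. Tests were checked on simulated data.

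Mice were numbered 1 to 4 within genotype and age, because the labels' replicate numbers repeat. Members and gene lists were chosen with earlier results of these data known. Named genes are members past the threshold by size, up to 10 each way per genotype comparison and 6 otherwise, plus core subunits, tissue isoforms, Ppargc1a, Tfam and up to 2 called genes each way from the other lists.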

Additional observations from a re-analysis of the deposited data

Results flagged for a closer look

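The genotype difference of Cox6a2 changed between 2 and 11 months in cortex by -1.20 on the log2 scale, by limma's test of the change itself. Its genotype difference at 11 months was 0.79 higher, that is, less negative, in striatum than in cortex by the paired test. The genotype difference of Atp5g1 changed between 2 and 11 months in striatum by 0.42. None of these results was called with arrays only scaled or without numbers 1 to 8. The Atp5g1 change was also lost in 8 of 16 fits that left out a mouse. In none of the 38 groups of 4 values tested did a sample's gap to the others exceed Dixon's 95% critical value. Only the groups of the 19 calls between genotypes were tested, and with 4 values that limit is hard to exceed. Uqcr10 in cortex at 11 months stayed below it, though without BACHD-ΔN17 replicate 1 its difference was -0.14 and no longer called.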

How the results depend on the processing

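The 34 named results took 403 values under the other settings, of which 288 kept direction and side of the threshold, 111 kept direction but no longer passed and 4 reversed. All 4 reversals came with scale in place of quantile normalisation in striatum at 11 months: Atp5g1 -0.027, Cox8a -0.13, Ndufb6 -0.13 and Ndufc2 -0.10; the cause was not tested beyond the shift of all features given above. Scale normalisation left 1 called member in striatum at 7 months, 2 in striatum at 11 months, 1 in cortex at 11 months, 17 between regions of wild-type mice, and 0 for both changes since 2 months and for the test between regions at 11 months. The main counts, in that order, were 5, 5, 9, 30, 1, 1 and 1. In striatum at 7 months 0 members were called with the 2 sets or the eights of internal numbers as a term or without a variance trend, 1 with numbers 1 to 32 only or without a detection filter, and 3 with the mean of all probes. In striatum at 11 months 3 were called with the eights as a term, without the filter or without the trend. In cortex at 11 months 5 were called with numbers 1 to 32 only, 2 without numbers 1 to 8 and 2 in a fit of only the groups compared. Leaving out numbers 1 to 8 left 2 mice of each genotype there. For the change in striatum 2 were called with the 2 sets or the eights, and 0 without the filter, without the trend or without numbers 1 to 8. For the change in cortex 2 were called with the 2 sets or the eights and 0 with numbers 1 to 32 only or without 1 to 8. For the test between regions at 11 months 2 were called on the authors' log2 values, and 0 in a fit of only the groups compared or without numbers 1 to 8. In that last fit every mouse with a number between 1 and 8 was left out whole, which left 2 of each genotype. The labels' replicate numbers repeat within groups and pair no samples across genotypes; as a replicate block they left 1 called member in striatum at 7 months, 3 in striatum at 11 months, 2 in cortex at 11 months and 0 for the change in cortex, and the Cox6a2 difference in cortex at 11 months was -1.10 (limma adjusted p = 0.00414). With no replicate block, that is with the regions of a mouse unpaired, 29 members were called between regions. Leaving out each mouse in turn gave 0 to 7 called members in striatum at 7 months, 2 to 6 in striatum at 11 months, 6 to 9 in cortex at 11 months, 0 to 2 and 1 to 1 for the changes in striatum and cortex, 1 to 2 for the test between regions at 11 months and 26 to 31 between regions. Without at least 1 mouse, every call in striatum at 7 months was lost, as were Ndufaf4, Cox8a and Ndufc2 in striatum and Ndufa10, Uqcr10, Uqcrc1, Atp5c1 and Ndufb6 in cortex at 11 months, Uqcrb and Uqcrc1 between regions, and Atp5g1 for the change; the calls kept throughout at 11 months were Atp5g1 and Ndufb6 in striatum and Cox6a2, Atp5d, Ndufa1 and Ndufc2 in cortex. Probes near background (Ndufab1, Uqcrfs1, Cox6b2 and Cox8b) limit what can be seen for those genes, and 4 animals per group limit all others.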
